A study of Arabidopsis thaliana with 8 samples.

Results

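The genes described here belong to enzyme families that make lignin monomers or join them into the polymer, and were measured in the Arabidopsis inflorescence stem. There were 7 of them, taken by gene name with earlier results of these arrays known, among 7418 genes named on the arrays. HCT (AT5G48930) and CCR2 (AT1G80820) encode enzymes that make the lignin monomers. The laccase genes LAC4 (AT2G38080), LAC17 (AT5G60020) and LAC9 (AT5G01050) and the peroxidase genes PER64 (AT5G42180) and AT2G37130 encode enzymes of the families that oxidize these monomers so that they join into the polymer. Each gene was measured by 1 probe of the 37685 on the array.

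Lignin is a phenolic polymer that stiffens and waterproofs the secondary cell walls of fibres and vessels. Its monomers, the monolignols, are made inside the cell from phenylalanine through a series of hydroxycinnamic acid intermediates, and are then exported to the wall. There they are oxidized to radicals by laccases, which use oxygen, and by class III peroxidases, which use hydrogen peroxide, and the radicals couple to the growing polymer.

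SND2 is a NAC domain transcription factor gene of the network that controls secondary walls, and the question behind the arrays was which genes respond when it is overexpressed. The line, SND2-OV(A), carries the SND2 coding sequence behind a constitutive promoter in the Col-0 ecotype. It is 1 homozygous T4 line of 3, and was taken because CesA8, a cellulose synthase gene of the secondary wall, was raised in it, so that it is not a random sample of such lines. RNA from the base of the primary stem (100 mm) of this line and of wild type Col-0 was set against each other on 2-colour arrays when the plants were 4 or 8 weeks old. Both ages had 3 biological replicates. A replicate pooled 10 plants of a genotype at 4 weeks and 6 at 8 weeks. Replicate 1 had a dye-swapped pair of arrays and the others 1 array each, with SND2-OV(A) labelled with Cy3 in replicate 2 and with Cy5 in replicate 3. The sample labels give hygromycin selection for both ages, whereas the methods give it for the 8-week plants only, so the ages may differ in more than age. The study describes the 4-week stems as little taller than the 100 mm sampled, so the piece was most of the stem at that age. The part of the stem sampled may thus differ between the ages as well.

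Every value is a log2 ratio, positive where SND2-OV(A) exceeded the wild type and 0 where they did not differ, and is given per replicate with the dye-swapped pair averaged. The SND2 probe had the highest ratio of all probes in every replicate at 8 weeks, from 5.23 to 7.60, and stood within the 3 highest at 4 weeks, from 2.75 to 3.37. Its signal was described by the authors as saturated. The Cy5 array of replicate 1 at 8 weeks was wide, with an SD over probes of 1.01 against 0.308 to 0.347 for the other 8-week arrays. Arrays are named here by the dye of the line. The probes of LAC4, LAC17 and PER64 could be named only because the study listed these genes as called at 8 weeks, and those of HCT, CCR2, LAC9 and AT2G37130 were named by the platform annotation. The 8-week values of LAC4, LAC17 and PER64 were thus chosen for being high, and are given as a description and not as independent evidence. Their 4-week values were not used in that choice. Ratios from whole stem pieces do not tell more cells of a lignifying type from more RNA per cell. Whether a probe also reads related laccases or peroxidases was not known here.

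In limma, which tests every probe with a spread shared across probes, 0 of the 7 genes passed an adjusted p under 0.05 (Benjamini-Hochberg over all probes) with a fold change over 1.5 at either age, where the background was 0% of probes at 8 weeks and 0% at 4 weeks. At an unadjusted p under 0.05 there were 2 of the 7 at 8 weeks, LAC4 and LAC17, both higher, against 1.31% of all probes higher at that p and 2.19% lower. Both could be named only because the study called them at 8 weeks, so this count follows in part from that choice and shows no enrichment. At 4 weeks 0 of the 7 had an unadjusted p under 0.05, against 0.356% of probes higher and 0.637% lower. The smallest adjusted p of the 7 genes was 0.990 at 8 weeks and 1.00 at 4 weeks. The SND2 probe did not pass at either age, and the smallest adjusted p of all probes at 8 weeks was 0.440 in limma. Not passing therefore says little about a gene here. The study's own fit of these arrays called LAC4, LAC17 and PER64 as raised at 8 weeks. Why the fits differ was not tested.

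The monomer enzymes stood close to the wild type in 8-week stems. HCT, the hydroxycinnamoyltransferase that forms the shikimate ester on the way to the guaiacyl and syringyl monomers, had log2 ratios of -0.10, 0.38 and -0.15 in replicates 1, 2 and 3. Replicate 2 alone was above the wild type, and 4.13% of all probes were higher than HCT in that replicate. The mean was 0.04 ± 0.29 (SD, n = 3), less than the spread between replicates, with a 95% interval of -0.33 to 0.41 in limma. CCR2, a cinnamoyl-CoA reductase better known from responses to pathogens than from the lignin of the stem, had log2 ratios of -0.25, -0.18 and -0.18. These 3 values lay close together. All were below the wild type, and 18.3% of all probes at 8 weeks were lower in all 3 replicates. The mean of CCR2 was -0.20 ± 0.04 (SD, n = 3), with an interval of -0.42 to 0.03.

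At 4 weeks HCT was again highest in replicate 2, and CCR2 spread widely. HCT had log2 ratios of -0.14, 0.26 and -0.07, so that replicate 2 was again the only one above the wild type, with a mean of 0.01 ± 0.22 (SD, n = 3). CCR2 had -0.01, -1.45 and -0.15. Replicate 2 was far below the other replicates, and 99.2% of all probes lay above CCR2 there. Its mean of -0.54 ± 0.80 (SD, n = 3) rests on that replicate, and without it was -0.08.

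**Figure D1:**
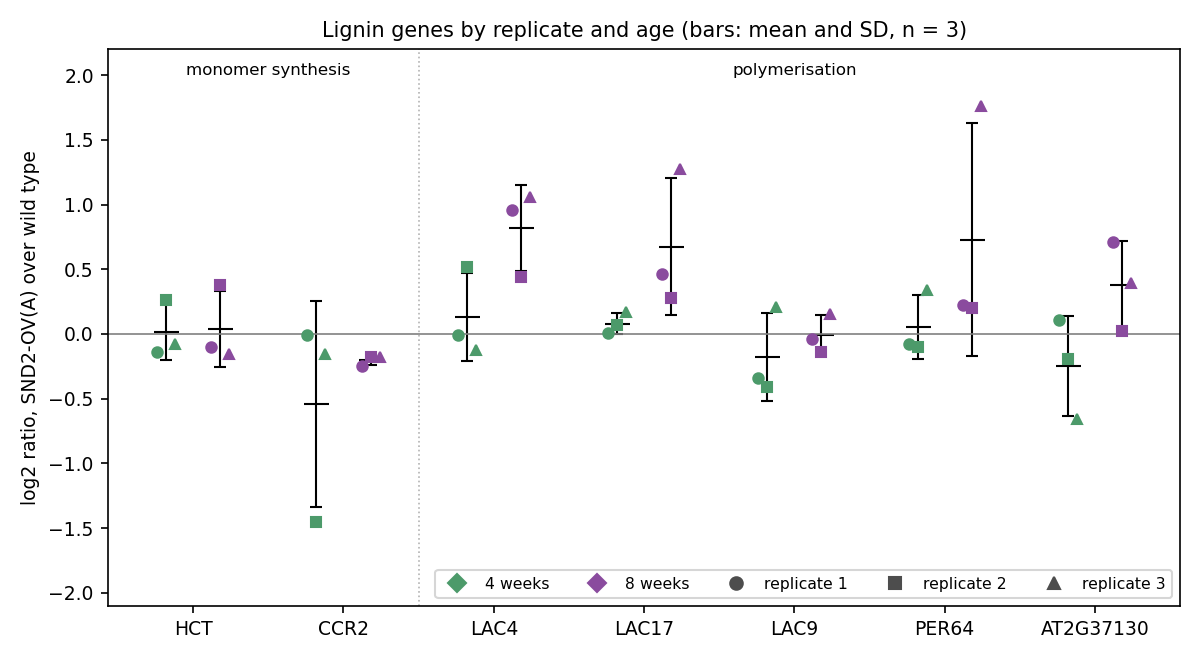
Log2 ratio of SND2-OV(A) over wild type (vertical axis) for the 7 lignin genes at 4 weeks (green) and 8 weeks (purple), with a symbol for each of the 3 replicates and black bars for mean and SD. At 8 weeks LAC4, LAC17, PER64 and AT2G37130 lie above 0 in every replicate, PER64 reaches 1.77 in replicate 3 only, and at 4 weeks CCR2 drops to -1.45 in replicate 2 only.

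Of the laccase genes, LAC4 and LAC17 were higher than the wild type in every 8-week replicate and LAC9 was not. LAC4 and LAC17 are the laccases best known for lignification of Arabidopsis stems, where the double mutant has less lignin, while the role of LAC9 is less well studied. LAC4, also called IRX12, had log2 ratios of 0.96, 0.44 and 1.06. Only 0.271%, 2.63% and 0.900% of all probes were higher in replicates 1, 2 and 3. The mean of LAC4 was 0.82 ± 0.33 (SD, n = 3), a fold of 1.77, with an interval of 0.42 to 1.22. LAC17 had log2 ratios of 0.46, 0.28 and 1.28. Replicate 3 was the highest and carried much of the mean of 0.67 ± 0.53 (SD, n = 3), which was 0.37 without it. LAC9 had log2 ratios of -0.04, -0.14 and 0.16 on both sides of the wild type, with a mean of -0.01 ± 0.15 (SD, n = 3) and an interval of -0.28 to 0.26. Its mean lay slightly above 0 once arrays were centred on their medians (0.03), so that it had no steady direction.

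In 4-week stems the means of LAC4 and LAC17 stood nearer to the wild type than at 8 weeks, and that of LAC9 did not. LAC4 had log2 ratios of -0.01, 0.52 and -0.12, with replicate 2 alone clearly above the wild type and a mean of 0.13 ± 0.34 (SD, n = 3). That replicate decided the sign, since the mean was -0.06 without it. LAC17 had 0.00, 0.07 and 0.17, above 0 in every replicate but by little, with a mean of 0.08 ± 0.08 (SD, n = 3) and an interval of -0.21 to 0.37. Being higher in all 3 replicates at 4 weeks was seen for 8.91% of probes. LAC9 had -0.34, -0.41 and 0.21, with a mean of -0.18 ± 0.34 (SD, n = 3).

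Both peroxidase genes were higher in every 8-week replicate, but each owed its mean to a different replicate. PER64, whose enzyme takes part in the lignin of the Casparian strip in roots, had log2 ratios of 0.22, 0.20 and 1.77. Replicate 3 was far above the others, with 0.284% of probes higher than PER64 there, and the mean of 0.73 ± 0.90 (SD, n = 3) was 0.21 without it. AT2G37130, which the study calls peroxidase 21, had 0.71, 0.02 and 0.40. Replicate 1 was the highest and replicate 2 was at the level of the wild type, which gave a mean of 0.38 ± 0.34 (SD, n = 3) and an interval of -0.03 to 0.79. The mean of AT2G37130 was 0.21 without replicate 1. Together with LAC4 and LAC17, 4 of the 7 genes were higher in all 3 replicates at 8 weeks, against 7.73% of all probes, and 3 of these 4 are the genes named through the called list. The other, AT2G37130, was also reported as raised by the study. By mean, 3 of the 7 were over 1.5-fold higher, against 0.456% of probes. They are those same 3 genes, and without replicate 3 the count was 1, LAC4. None of the 7 was over 1.5-fold lower, against 2.76% of probes. A mean above 0 was found for 5 of the 7, against 38% of probes, and replicate 3 was the highest for 5 of the 7, against 46.2%.

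At 4 weeks neither peroxidase gene had one sign. PER64 had log2 ratios of -0.08, -0.10 and 0.34, with a mean of 0.05 ± 0.25 (SD, n = 3). AT2G37130 had 0.11, -0.20 and -0.65, with a mean of -0.25 ± 0.38 (SD, n = 3). Its value in replicate 3 was among the lowest of that replicate, where 99.7% of probes were higher. At this age 4 of the 7 genes had a mean above 0, against 49.1% of probes, 0 were over 1.5-fold higher, against 1.05%, and 3 had replicate 3 highest, against 47%. CCR2 was the one gene below the wild type in all 3 replicates, as were 7.98% of probes, and 0 of the 7 were over 1.5-fold lower by mean, against 1.52%.

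Ordered by their means, the 8-week genes ran LAC4, PER64, LAC17, AT2G37130, HCT, LAC9 and CCR2, and each differed from its neighbour by at most 0.34, less than the larger SD of the pair in 5 of 6 steps. The step between HCT and LAC9 was 0.05 only, so that a laccase stood beside the monomer enzymes. At 4 weeks each gene differed from its neighbour by at most 0.29, less than the larger SD in every step.

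Monomer synthesis and polymerisation were then compared within each replicate, as the mean log2 ratio of the 5 laccase and peroxidase genes minus the mean of HCT and CCR2. At 8 weeks this difference was 0.64, 0.06 and 1.096 in replicates 1, 2 and 3. In replicates 1 and 3 all 5 polymerisation genes lay above both monomer genes, whereas in replicate 2 only LAC4 (0.44) lay above HCT (0.38), and LAC17, PER64, AT2G37130 and LAC9 lay below it. For replicate 1 this held for the averaged pair and its wide Cy5 array. On its Cy3 array 4 of the 5 lay above both, and LAC9 (-0.32) lay below CCR2 (-0.19) and HCT (0.02). Replicate 3 had the line in Cy5 only. The mean difference of 0.60 ± 0.52 (SD, n = 3) was a little larger than its spread, and was 0.35 without replicate 3. It holds LAC4, LAC17 and PER64, which were named for being high in these samples. With LAC9 and AT2G37130 alone, the polymerisation genes named by the annotation, the difference was 0.51, -0.16 and 0.44, with a mean of 0.26 ± 0.37 (SD, n = 3), within the spread. No p is given for these means, because the genes were chosen with results known.

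At 4 weeks the difference was 0.01, 0.57 and 0.10 in replicates 1, 2 and 3, with a mean of 0.23 ± 0.30 (SD, n = 3). The value of replicate 2 came from the low CCR2 and not from high polymerisation genes, whose mean was -0.02 there. With HCT as the only monomer gene, a comparison chosen after seeing the data, the 4-week differences were 0.08, -0.29 and 0.06, with a mean of -0.05 ± 0.21 (SD, n = 3). The same comparison at 8 weeks gave 0.57, -0.22 and 1.09, with a mean of 0.48 ± 0.66 (SD, n = 3). The mean of the 5 polymerisation genes itself lay from -0.06 to -0.01 in the 4-week replicates and at 0.46, 0.16 and 0.93 in the 8-week replicates.

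**Figure D2:**
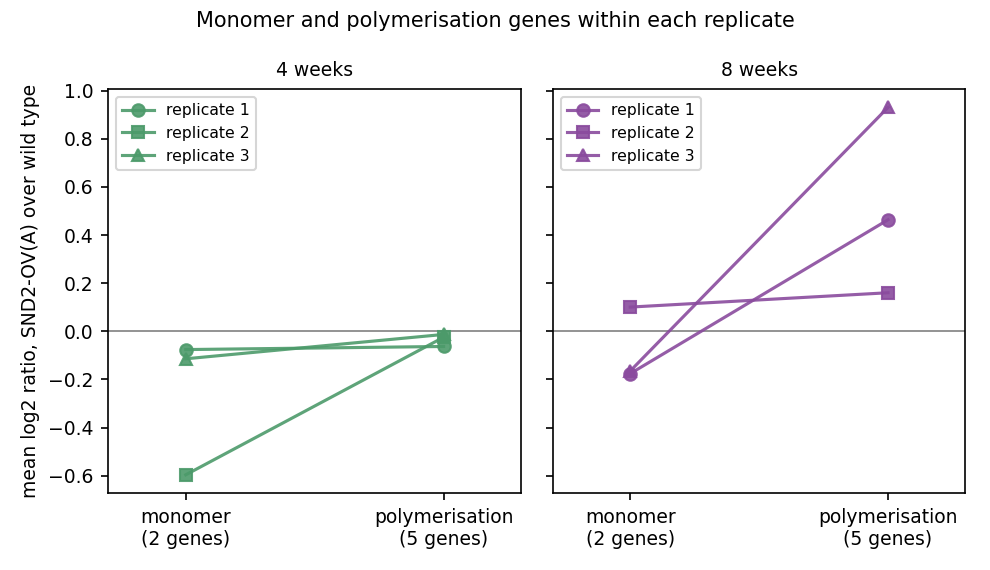
Mean log2 ratio of SND2-OV(A) over wild type (vertical axis) of the 2 monomer genes and the 5 polymerisation genes, joined by a line within each replicate, at 4 weeks (left) and 8 weeks (right). The lines climb steeply in replicates 1 and 3 at 8 weeks (differences of 0.64 and 1.096) and hardly in replicate 2 (0.06), and the 4-week polymerisation means all lie near 0.

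Between the ages, LAC4, PER64, AT2G37130 and LAC17 differed by similar amounts. The log2 ratio of LAC4 was 0.69 higher at 8 than at 4 weeks, with a 95% interval of 0.10 to 1.28 in limma over the 6 replicate ratios, and the 4-week replicate 2 (0.52) lay above the 8-week replicate 2 (0.44). PER64 was higher by 0.68 (-0.37 to 1.73), AT2G37130 by 0.62 (-0.00 to 1.25) and LAC17 by 0.59 (-0.06 to 1.24). Without replicate 3 of 8 weeks the difference was 0.16 for PER64 and 0.29 for LAC17. For LAC17 the 3 values at 8 weeks all lay above the 3 at 4 weeks, as for 2.13% of probes, and for the other 6 genes the ages overlapped. All 7 means were higher at 8 weeks, against 45.7% of probes. HCT differed by 0.02 (-0.46 to 0.51), LAC9 by 0.17 (-0.32 to 0.67) and CCR2 by 0.34 (-0.57 to 1.25), and the last was -0.12 without replicate 2 of 4 weeks. None of the 7 differences passed over all probes (adjusted p = 1.00 in limma for each), the background being 0% of probes, and LAC4 alone had an unadjusted p under 0.05, against 0.568% of probes higher at 8 weeks at that p. The probe of AT2G37130 was named by the annotation, but the gene, like the others, was taken with 8-week results known.

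**Figure D3:**
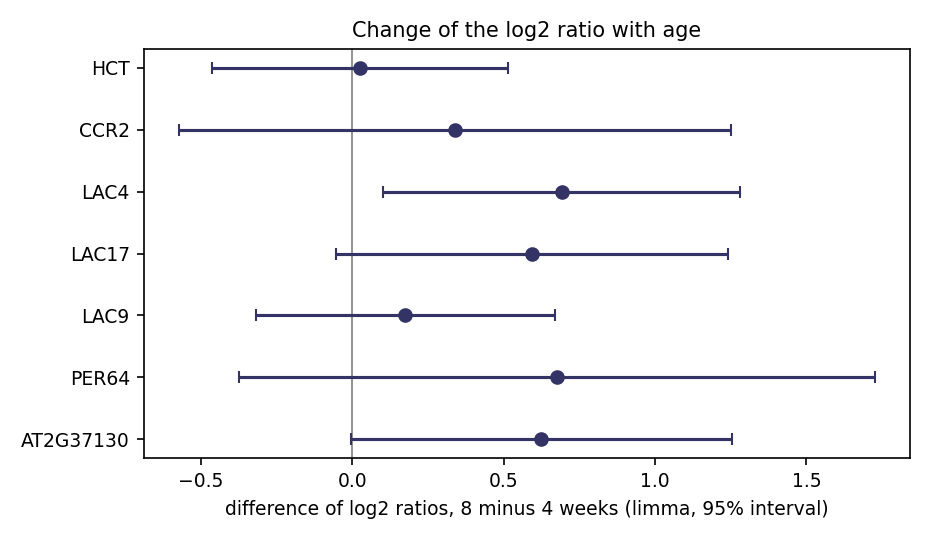
Difference of the log2 ratio between 8 and 4 weeks (horizontal axis) for each of the 7 genes, as the limma estimate with its 95% interval. The interval of LAC4 (0.10 to 1.28) excludes 0, that of AT2G37130 ends at 0 (-0.00 to 1.25), and HCT is centred near 0 (0.02). LAC4, LAC17 and PER64 were named for being high at 8 weeks, which tends to raise their differences.

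For some of the genes the order of the arrays followed the dyes, as it did for many other probes on these arrays. The median over all probes was -0.11 to -0.02 on the arrays with the line in Cy3 and 0.0028 to 0.06 on those in Cy5. For LAC9 the 4 arrays with the line in Cy3, at -0.64 and -0.41 at 4 weeks and -0.32 and -0.14 at 8 weeks, all lay below the 4 with the line in Cy5, at -0.05, 0.21, 0.25 and 0.16. This was seen for 10.8% of all probes, and for 8.9% with the Cy3 values also all negative. Within single ages LAC17 and LAC9 had both Cy3 arrays below both Cy5 arrays at 8 weeks, against 37.8% of probes, and LAC17, LAC9 and PER64 at 4 weeks, against 32.9%. LAC4 at 4 weeks went the other way, with 0.21 and 0.52 in Cy3 and -0.22 and -0.12 in Cy5, as for 15.5% of probes at that age. At 8 weeks LAC4 had a mean of 0.83 over the Cy3 arrays and of 0.88 over the Cy5 arrays, so that it was high in both orientations. AT2G37130 had 0.43 and 0.49 at 8 weeks in the same order. LAC17 had 0.35 in Cy3 and 0.89 in Cy5, and PER64 had 0.26 and 0.95, and in both the larger value came from the array of replicate 3. The high value of HCT in replicate 2 was on an array with the line in Cy3, and its other Cy3 array at 8 weeks was at 0.02, both above its Cy5 arrays, as for 17.4% of probes. The part of the dyes in these values was not tested beyond the fit with a dye term.

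**Figure D4:**
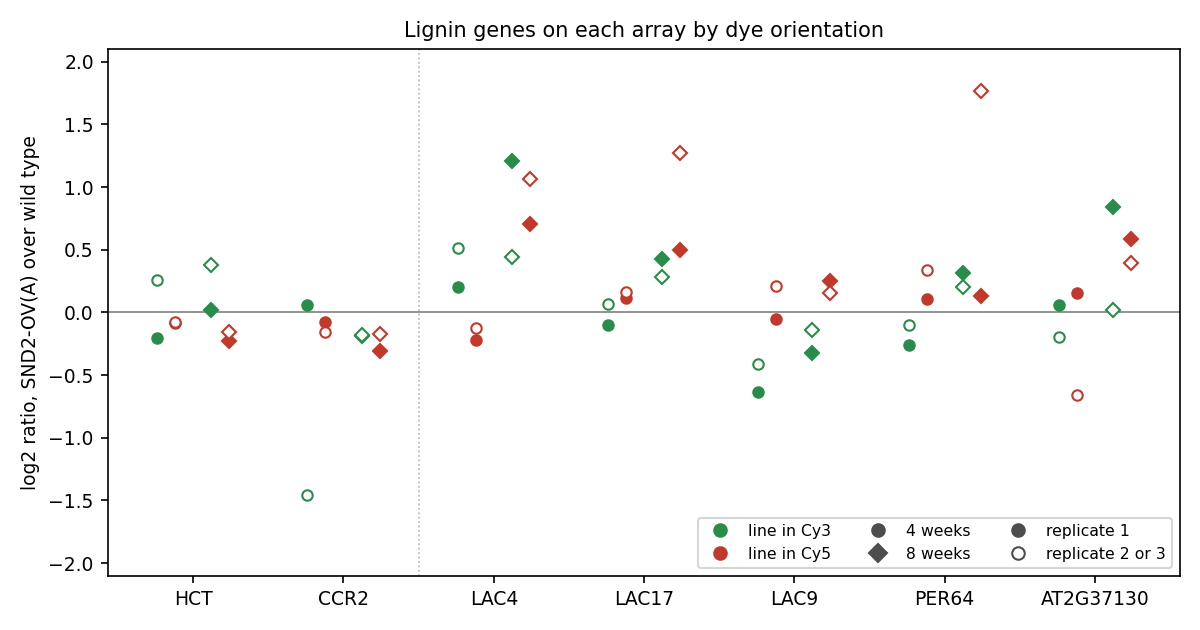
Log2 ratio of SND2-OV(A) over wild type (vertical axis) of the 7 genes on each of the 8 arrays, green for the line in Cy3 and red for the line in Cy5, circles for 4 weeks and diamonds for 8 weeks, filled for the dye-swapped replicate 1. For LAC9 all 4 green symbols lie below all 4 red ones, while LAC4 at 8 weeks is high in both colours (means of 0.83 and 0.88).

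Replicate 3 was the highest at 8 weeks in some other genes too, as it was for 46.2% of all probes. Over all probes the array of that replicate did not stand apart. Its SD of 0.333 lay within the range of the 8-week arrays other than the wide one, and its median was 0.0028. The early stress and touch genes XTH22, a xyloglucan endotransglucosylase, and ORA47, an AP2/ERF transcription factor, had log2 ratios of 3.82 and 3.74 in replicate 3 at 8 weeks, against -1.63 to 0.36 for XTH22 and -1.65 to 0.27 for ORA47 in the other replicates of that age. These were the 2 with a named probe of a list of 5, XTH22 named through the study's called lists and ORA47 by the annotation. The 5 genes of 5 for fibre and xylem walls (CESA4, CESA7, CESA8, FLA11 and COBL4) lay at 0.54 to 0.70 in replicate 1, 0.00 to 0.34 in replicate 2 and 1.21 to 1.95 in replicate 3, and all 5 were named through the called list. LAC4, LAC17 and PER64 followed the same order of replicates, with 2 the lowest and 3 the highest. At 4 weeks the median of the wall genes was -0.06, 0.37 and 0.08, highest in replicate 2, where LAC4 was highest too and CCR2 lowest, and XTH22 and ORA47 were at -2.01 and -2.13 in that replicate. The part of these differences in the values of the lignin genes was not tested. Of the markers for phloem, epidermis and green cortex, 4 genes each, 0 had a named probe, and ratios give no level by which the labelled tissue could be checked.

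Few other genes of the lignin pathway could be named. HCT and CCR2 were the 2 with a named probe of 19 genes for monolignol enzymes, and the 3 laccases those of 17. Of a list of 15 class III peroxidases, those described as such in the gene table with AT2G37130 added, 7 had a named probe, 0 passed at either age, and by mean 5 were higher and 2 lower at 8 weeks, with a median log2 ratio of 0.20 against -0.03 for all probes. At 4 weeks 2 were higher and 5 lower, with a median of -0.06 against -0.00. After PER64, the highest at 8 weeks was PRX25 (AT2G41480), one of the peroxidases tied to stem lignin by mutants, which was named by the annotation. It had 0.38, 0.29 and 0.47 at 8 weeks, with a mean of 0.38 ± 0.09 (SD, n = 3, adjusted p = 0.990 in limma), and -0.21, -0.88 and -0.15 at 4 weeks, with a mean of -0.41 ± 0.41. Lowest was PRX37 (AT4G08770) with -4.01, -0.18 and -0.92 at 8 weeks, a mean of -1.70 ± 2.03 (SD, n = 3) that became -0.33 when the wide array of replicate 1 was left out. Of 6 genes for transport and glycosylation of monolignols 2 had a named probe and lay near the wild type at 8 weeks, UGT72E3 (AT5G26310), a glucosyltransferase of monolignols, at -0.09 ± 0.06 (SD, n = 3), and BGLU46 (AT1G61820), a beta-glucosidase of monolignol glucosides, at -0.05 ± 0.36. At 4 weeks they had -0.09 ± 0.20 and -0.10 ± 0.57. Of 15 regulators of lignin 1 had a probe that could be named here, MYB103 (AT1G63910), a MYB factor needed for syringyl lignin. It had 0.70, 0.30 and 1.62 at 8 weeks, with a mean of 0.87 ± 0.68 (SD, n = 3, adjusted p = 0.990 in limma) that was 0.50 without replicate 3, and 0.07 ± 0.11 at 4 weeks, and it was named through the called list. Of 3 genes that the table describes as dirigent proteins 0 had a probe that could be named here, and the unnamed probes may hold these and other genes of the lists. The study itself reported DIR6 (AT4G23690), of these 3, and a putative peroxidase gene outside the list as lower at 8 weeks.

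Among the 7 genes the closest pair across the 6 replicate ratios was LAC17 and PER64, with a Pearson correlation of 0.97. LAC4 correlated with AT2G37130 at 0.79, with LAC17 at 0.76 and with PER64 at 0.58, while HCT correlated with the 5 polymerisation genes at -0.05 to -0.45. These points share pools of RNA, dye orientation and age, and 6 points give no measure of certainty. The named probes most like LAC4 over the same 6 ratios were BARD1 (AT1G04020) at 0.98, AT1G35710 at 0.97 and AT5G25100 at 0.97. Those most like HCT were AT1G29240, AT2G24360 and AT1G79030, each at 0.99. All 3 were highest in replicate 2 at both ages, as HCT was, which follows from how they were picked.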

How the data were processed

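Total RNA of SND2-OV(A) and wild type stems was labelled and hybridized to Agilent 4 × 44k arrays. Scanning and feature extraction were done with GenePix hardware and software, and the authors normalized the values with limma in R. For the steps of the normalization the methods cite earlier work, and the steps themselves are not given in the sources used here. The deposited values are log2 ratios per probe and array. Their scale and direction were checked against the study's own lists: the mean over replicates lay within 0.001 of the listed value for 45 of 45 probes at 4 weeks and 188 of 223 at 8 weeks. Values were complete for 37685 probes over 8 arrays, and none was filtered. With no intensities used here, the number of arrays sets the precision.

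Samples were assigned from the labels. Genes were named for 7440 probes by the platform annotation and for 7628 once the gene column of the study's called lists was added, through their probe numbers. Current symbols came from RefSeq. Arrays of replicate 1 were averaged. Each age was fitted alone with an intercept (limma 3.58.1, R 4.3.3, lmFit and eBayes), and the ages were compared in a fit of 6 ratios. The fits were tested on simulated data. Besides the 7 genes, the text names, for each pathway list, the other measured genes with the highest and lowest 8-week means, and the 3 named probes most correlated with LAC4 and with HCT. The peroxidase and dirigent lists hold genes so described in the symbols and synonyms of the gene table, to which AT2G37130 was added. Members and lists were chosen with earlier results of these data known. Alternatives covered the dye-swapped pair, a dye term, centring, scaling, one fit for both ages, no fold limit, probes averaged per gene, a replicate block and each replicate left out.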

Additional observations from a re-analysis of the deposited data

Results flagged for a closer look

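PRX25 (AT2G41480) stood out because it was higher than the wild type in all 3 replicates at 8 weeks and lower in all 3 at 4 weeks, as were 0.364% of all probes. Its log2 ratio was 0.80 higher at 8 weeks. In limma this difference had an adjusted p of 1.00 over all probes, and over the alternatives it ranged from 0.56 to 0.93.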

How the results depend on the processing

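For the 7 genes, 184 of 203 values under the alternatives kept their direction, 19 changed sign and 0 passed the threshold (lowest adjusted p = 0.655 in limma). The values kept include those from one fit for both ages and from the replicate block, which leave each mean unchanged and so could not change a sign. The number of the 7 genes passing was 0 in each alternative at both ages and between them. Over all probes, 2 passed at 8 weeks and 2 at 4 weeks when both ages were fitted together, and 0 to 3 passed at 8 weeks when a replicate was left out. The number of the 7 genes over 1.5-fold higher at 8 weeks was 1 to 3 when a replicate was left out.

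With only the Cy5 array of replicate 1, HCT was at -0.000325 and LAC9 at 0.0876 at 8 weeks, and the age difference of HCT was -0.0352. With only its Cy3 array, HCT was at -0.00492, PER64 at -0.00849 and BGLU46 at 0.000213 at 4 weeks. With a dye term HCT was at -0.0244 and BGLU46 at 0.0165 at 4 weeks. With arrays centred LAC9 was at 0.0282 at 8 weeks, and with arrays also scaled LAC9 was at 0.0335 and HCT at 4 weeks at -0.00758. Leaving out a replicate gave -0.13 to 0.14 for HCT, -0.0895 to 0.0603 for LAC9 and -0.16 to 0.15 for BGLU46 at 8 weeks. At 4 weeks it gave -0.11 to 0.0936 for HCT, -0.0630 to 0.26 for LAC4, -0.0889 to 0.13 for PER64, -0.25 to 0.49 for PRX37, -0.15 to 0.0277 for UGT72E3 and -0.32 to 0.22 for BGLU46. The age difference of HCT then lay from -0.14 to 0.15 and that of CCR2 from -0.12 to 0.60. The causes were not tested.

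The difference between polymerisation and monomer genes ranged over the alternatives from 0.26 to 0.87 at 8 weeks and from -0.05 to 0.34 at 4 weeks. Each move was less than its SD over replicates. Centring cannot change a difference within an array, and leaving out 1 of 3 replicates cannot move a mean by its SD. Those alternatives therefore say nothing on how steady the difference is. The 4-week sign changed with HCT as the only monomer gene. Replicate numbers are shared by the ages but name separate pools. Deviations of same-numbered replicates correlated at -0.02, 0.12 and 0.16, highest with their own number for replicates 2 and 3 but not for replicate 1. Replicates 2 and 3 each had the same dye orientation at both ages, so these values cannot decide whether the numbers pair the samples. A block by replicate number takes in the dye orientation too. With the replicate number as a block the age difference of LAC4 stayed at 0.69, 0 of the 7 genes passed, and the count of all probes passing stayed at 0 (843 at an unadjusted p under 0.05, against 603 without the block). The unadjusted p went from 0.0280 to 0.0698 for LAC4 and from 0.0512 to 0.0352 for AT2G37130. Without replicate 1 or 3 of 8 weeks that of LAC4 was 0.0826 and 0.0906.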
